A study of Mus musculus with 4 samples.

Results

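Cullin-RING ubiquitin ligases mark proteins for degradation or for a change of activity. A cullin scaffold holds a RING subunit and the ubiquitin-conjugating enzyme at one end, and at the other end a substrate receptor that picks the target. F-box proteins are receptors of CUL1, BTB proteins of CUL3, DCAF proteins of CUL4 and SOCS box proteins of CUL2 or CUL5. In the mouse testis the best known of them is KLHL10, a CUL3 receptor of spermatids that male fertility requires. The genes described here are the cullins and receptors whose symbol begins with Cul, Fbxl, Fbxo, Fbxw, Klhl, Kbtbd, Btbd, Kctd, Dcaf, Asb, Socs or Spsb, by name alone and whether or not binding to a cullin is known. By this rule 126 of the 11304 transcripts in the authors' table, from 88 of its 7453 genes, were members, and none was a Kbtbd gene (0 transcripts). They comprised 5 transcripts of 4 cullin genes, 43 of 27 F-box genes, 52 of 38 BTB genes, 7 of 6 DCAF genes and 19 of 13 SOCS box genes.

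RNA came from the left testis of C57BL/6 mice at postnatal day 56, with 2 libraries from wild-type mice (WT) and 2 from mice labelled Ppp2ca-cKO, genotype Ppp2ca-/-. The gene codes for one of the catalytic subunits of protein phosphatase 2A, and the series asks how it bears on the start of meiosis in male germ cells. The driver of the conditional deletion is not given in the sources used here. Transcripts of Ppp2ca were not among those listed (0 of 11304), so the genotype labels were taken as given. Every listed transcript had been called different between these same libraries by the authors, and members that did not change were not analysed here.

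Library totals were between 17612255 and 19834984 reads, and the listed transcripts took 43.3% and 44.5% of them in WT but 24.4% and 25.5% in cKO. Normalized counts below are read counts divided by the authors' size factors, with errors as SD over 2 libraries. FPKM divides reads by library total and by an effective length, which leaves out about 211 to 241 bases of a transcript. It is used wherever levels of different transcripts are compared, and it sets short transcripts higher than their full length would. Log2 fold changes are cKO over WT with the standard error of the fit, and p-values are from the quasi-likelihood test of edgeR, adjusted over the 64840 transcripts of the authors' own test. A transcript rose, fell or passed where this adjusted p was under 0.05. Since the test was run on transcripts already picked on the same libraries, its calls describe size against spread and are not independent evidence. The authors' size factors set every cKO over WT ratio 0.53 lower on the log2 scale than equal library totals would, so small decreases depend on this scaling.

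Markers of testis cell types, each taken by its most abundant listed transcript, differed between the genotypes along with the members. All 12 elongating spermatid and all 10 round spermatid markers were listed, 10 of each fell, and their summed normalized counts went from 233584 and 257260 in WT to 4345 and 17915 in cKO, and from 20508 and 24827 to 1886 and 2900. For the 7 of 10 spermatocyte markers that were listed, of which 2 fell, the sum went from 84395 and 108299 to 33398 and 41804. For 6 of 9 spermatogonial markers, of which 0 passed in either direction, it went from 768.1 and 1141 to 2718 and 2599. Sertoli markers (12 of 17 listed, 5 rose) went from 15356 and 16382 to 38601 and 39896, Leydig markers (7 of 10, 5 rose) from 6494 and 5832 to 21530 and 28893, and leukocyte markers (6 of 10, 3 rose) from 728.9 and 755.4 to 2706 and 2646. The elongating spermatid sum is the one in which the cKO libraries differed most from each other, with replicate 2 above replicate 1. Of all these listed markers 1, the Leydig enzyme Hsd17b3, was at 0 in both cKO libraries and none was at 0 in WT (0 of each list). In such bulk RNA, fewer cells of a type and less RNA per cell cannot be told apart, and the part of these shifts in the results below was not tested.

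Of 120 member transcripts tested, 54 fell and 6 rose in cKO, and 60 did not pass, although all 37 fitted increases and all 83 fitted decreases had an unadjusted p under 0.05. Among all 10716 listed transcripts tested, 41.4% were lower and 10.4% were higher by the same rule, so the table as a whole leans the same way. The median log2 fold change of the tested members was -1.87, beside -1.70 over all listed transcripts tested. All 126 members separated the genotypes without overlap, 88 with both cKO libraries below WT and 38 with both above. That held for 66.9% and 33.1% of the whole table, which was chosen on this contrast. Of the fitted decreases 56 of 83 lay beyond -2, whereas 28 of 37 fitted increases lay between 1 and 2. The same shares over the whole table were not counted, so whether this is particular to the members cannot be said. The smallest absolute log2 fold change listed was 1.0, and with library totals every ratio would be 0.53 higher. With library totals in place of the size factors 42 members fell and 32 rose, against 30.4% and 27.8% of the table. The calls needed both WT libraries: without WT replicate 1, or without WT replicate 2, edgeR called 0 members in either direction, with 73 lower and 18 higher, or 64 lower and 22 higher, at an unadjusted p under 0.05. Without cKO replicate 1 the median of the tested members was -1.78, and without cKO replicate 2 it was -2.19. Shares of the whole table were not counted with a library left out, so the loss of calls may not be particular to the members. DESeq2 called 68 lower and 18 higher, against 52% and 18.1% of the table.

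**Figure D1:**
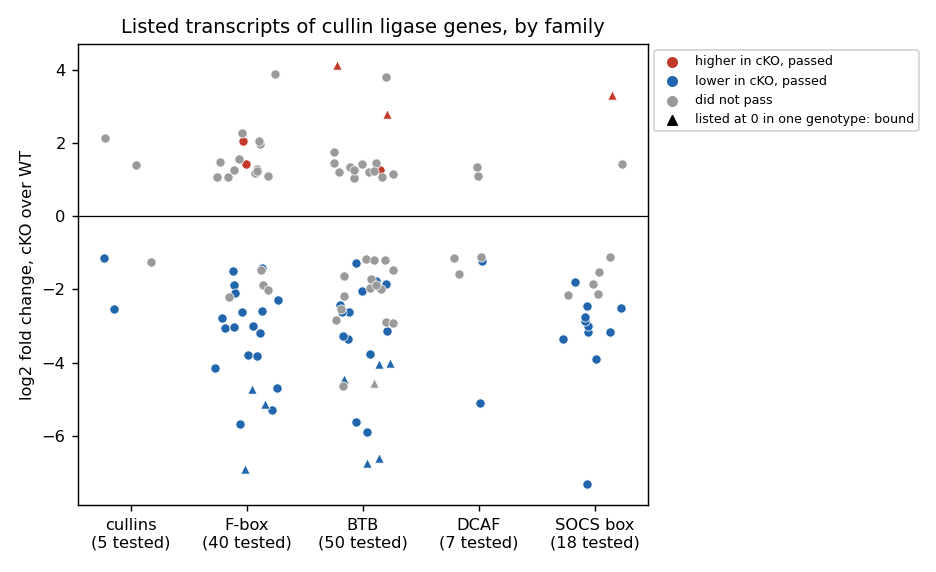
Log2 fold change (cKO over WT, vertical axis) of the 120 tested transcripts by family, 1 point per transcript: red rose, blue fell, grey did not pass, and triangles stand at the bound set by 3 counts where a genotype was at 0. Points below 0 outnumber those above in every family, and most increases lie between 1 and 2.

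The families differed in how their members were spread. In the SOCS box family 11 of 18 tested transcripts fell, 1 rose, and the median was -2.48. Of the F-box transcripts 21 of 40 fell and 2 rose, with a median of -1.95. In the BTB family 18 of 50 fell and 3 rose, with a median of -1.86. Within it 12 of 20 Btbd transcripts fell and 0 rose (a median of -2.58, 0 with a fitted increase). These are not independent members: 10 were near-identical Btbd35f copies, of which 4 fell. The other 10, of 4 genes and 6 of them of Btbd9, had 8 that fell and a median of -2.23. Of the Kctd transcripts 1 of 12 fell and 1 rose, with 8 fitted increases and a median of 1.14. That Kctd median turned to -0.25 with equal Sertoli marker counts. The DCAF and cullin families were small, with 2 of 7 and 2 of 5 tested transcripts lower, 0 higher by edgeR but 1 higher in each by DESeq2, and medians of -1.14 each that turned to 0.36 and 0.38 under TMM scaling of the listed transcripts. The families were not tested against each other.

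Among the listed member transcripts, the levels in WT were led by a receptor and its scaffold. Klhl10 stood at 197.3 ± 40.7 FPKM, Cul3 at 185.1 ± 16.8 and a short Btbd1 transcript at 179.3 ± 72.8, and these 3 do not differ beyond their spread. Below them came Fbxo36 at 107.5 ± 25.9, Asb17 at 89.7 ± 18.7, Fbxo30 at 81.6 ± 7.99 and Btbd16 at 80.2 ± 8.13 FPKM, again within each other's spread. In cKO the order changed at the top. Cul3 led at 121.3 ± 5.08 FPKM, followed by Btbd1 at 72.7 ± 17.8, Fbxo36 at 55.2 ± 7.54 and Fbxo30 at 44.2 ± 1.65, while Klhl10 was at 20.9 ± 10.7 and Asb17 at 8.76 ± 5.57. FPKM divides by the library total and not by the authors' size factors, so FPKM ratios between the genotypes are nearer to 1 for decreases than the fitted ones.

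**Figure D2:**
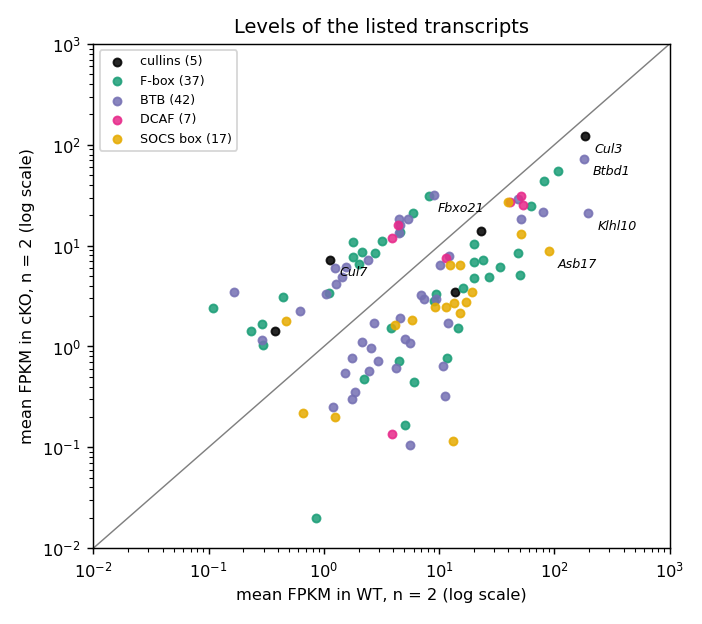
Mean FPKM in cKO (vertical, log scale) against mean FPKM in WT (horizontal, log scale) for the 108 member transcripts above 0 in both genotypes, coloured by family, with the line of equal levels. Below the line lie 74 transcripts, among them Klhl10 and Asb17 far from it and Cul3 close to it, and 34 lie above it.

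Upstream sequences are shown for Klhl10, Asb17 and Fbxo39, which fell by over 10-fold, and for Fbxo21 and Klhl23, which rose, so that the windows of both directions can be compared. Each is the 250 bases before the RefSeq start site on the plus strand of GRCm38.p6, within 19 bases of the start of the listed transcript. The windows are chr11:100441674-100441923, chr3:153843997-153844246, chr11:72314194-72314443, chr5:117976520-117976769 and chr2:69822120-69822369. Capitals mark the letters TGACG, the core of the cAMP response element that the spermatid factor CREM binds, and GGGCGG, the GC box, on either strand. The motifs can overlap, since TGACG ends in the base with which GGGCGG begins.
Klhl10: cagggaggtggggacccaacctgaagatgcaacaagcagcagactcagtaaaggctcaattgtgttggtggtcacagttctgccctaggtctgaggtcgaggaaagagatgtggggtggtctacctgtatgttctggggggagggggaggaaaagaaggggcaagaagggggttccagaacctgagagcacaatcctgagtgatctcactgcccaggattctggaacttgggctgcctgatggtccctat
Asb17: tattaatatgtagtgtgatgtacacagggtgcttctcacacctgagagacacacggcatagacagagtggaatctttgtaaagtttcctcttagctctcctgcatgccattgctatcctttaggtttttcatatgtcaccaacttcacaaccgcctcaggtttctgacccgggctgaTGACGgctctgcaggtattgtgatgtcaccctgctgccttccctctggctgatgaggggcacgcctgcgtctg
Fbxo39: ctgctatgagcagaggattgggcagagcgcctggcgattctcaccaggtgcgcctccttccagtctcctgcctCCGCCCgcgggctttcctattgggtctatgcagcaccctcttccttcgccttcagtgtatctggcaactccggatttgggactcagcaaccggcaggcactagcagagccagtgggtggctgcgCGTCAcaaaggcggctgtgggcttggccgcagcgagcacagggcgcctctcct
Fbxo21: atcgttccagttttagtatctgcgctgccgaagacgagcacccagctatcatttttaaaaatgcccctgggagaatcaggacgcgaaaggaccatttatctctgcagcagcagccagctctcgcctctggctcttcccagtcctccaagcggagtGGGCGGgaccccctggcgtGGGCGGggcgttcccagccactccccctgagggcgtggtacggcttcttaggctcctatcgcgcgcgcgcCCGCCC
Klhl23: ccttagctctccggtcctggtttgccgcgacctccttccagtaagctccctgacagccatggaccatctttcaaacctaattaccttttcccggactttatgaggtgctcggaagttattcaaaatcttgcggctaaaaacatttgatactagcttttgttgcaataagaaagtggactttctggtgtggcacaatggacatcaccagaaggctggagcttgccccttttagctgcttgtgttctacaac
The Asb17 window holds 1 CRE core, 73 bases before the start site, and the Fbxo39 window holds 1 CRE core, 53 bases before it, and 1 GC box. Fbxo21 has 3 GC boxes and 0 CRE cores, and the Klhl10 and Klhl23 windows have neither (0 and 0). Windows were found for 67 of 88 member symbols, and 70 member transcripts start within 100 bases of one. A CRE core was in 13 of 37 windows of members lower in the authors' deposited table (35.1%), in 4 of 22 windows of members higher there (18.2%), and in 17.8% of all 32851 windows. For all listed transcripts the shares were 22.1% for lower and 22.9% for higher. A GC box was in 15 of 37 windows of lower members (40.5%) and in 17 of 22 of higher ones (77.3%), beside 40.9% and 63.9% for all listed transcripts and 32.7% of all windows. These shares are descriptions of letters and were not tested.

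Among the listed cullin transcripts, those of Cul3 and Cul4b fell. The listed Cul3 transcript (ENSMUST00000164108, 2442 bases, gene on chromosome 1, 80264923 to 80340480, GRCm38) had 9467 and 8863 normalized counts in WT and 4199 and 4109 in cKO. The cKO values are close together and below both WT values, at a log2 fold change of -1.14 ± 0.22 (adjusted p = 0.0376). This was -0.61 with library totals and turned to 0.38 under TMM scaling, and the call ended under each (adjusted p = 0.195 and 0.864). The X-linked scaffold Cul4b (chromosome X, 38533274 to 38576196) fell further, from 801.1 and 967.4 to 113.1 and 193.6 (-2.53 ± 0.37, adjusted p = 0.0238). It stayed negative under each of the 3 other scalings (-1.02 to -3.84), but its call ended under TMM (adjusted p = 0.228). Cul7, a scaffold that pairs with the F-box protein FBXW8, had 107.6 and 164 counts in WT and 377.3 and 813.5 in cKO. This difference was short of the threshold (2.13 ± 0.49, adjusted p = 0.058). The Fbxw8 transcript, annotated as a retained intron, had 19.6 and 14.1 counts in WT against 110.7 and 52.8 in cKO and did not pass either (2.27 ± 0.59, adjusted p = 0.0803).

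Cul5, the scaffold of SOCS box receptors, was the 1 member gene with listed transcripts in both directions. Its 5942-base coding transcript had 53.8 and 42.2 counts in WT and 125.2 and 127.2 in cKO (1.39 ± 0.39, adjusted p = 0.101). A 559-base transcript annotated as a retained intron had 177.3 and 167.5 in WT and 88.1 and 56 in cKO (-1.26 ± 0.39, adjusted p = 0.137). Neither passed the test, and the second turned to 0.27 under TMM scaling. In FPKM the short form stood higher in both genotypes, at 23 and 14 against 0.38 and 1.42 for the coding form.

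Klhl10 fell the most in absolute counts among the BTB receptors. Its main transcript (ENSMUST00000001599, chromosome 11, 100441917 to 100457022) had 6558 and 9336 normalized counts in WT and 364.4 and 802.3 in cKO, a log2 fold change of -3.77 ± 0.48 (adjusted p = 0.0192). Both cKO libraries lie far below WT, with replicate 2 above replicate 1, and without cKO replicate 2 the log2 fold change was -4.45. Over 88 member transcripts the median log2 ratio of cKO replicate 2 over 1 was 0.14. A second, 932-base Klhl10 transcript fell from 67.3 and 66.8 to 8.08 and 5.6 counts (-3.27 ± 0.51, adjusted p = 0.0266). Under library totals, TMM and equal Sertoli counts the main transcript kept its sign, at -3.24, -2.26 and -5.08.

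Other BTB members that fell included Btbd16, from 2626 and 3214 to 475 and 607.9 (-2.43 ± 0.27, adjusted p = 0.0173), and a non-coding 556-base transcript of Btbd1, from 1715 and 952.2 to 440.3 and 300.8 (-1.85 ± 0.39, adjusted p = 0.0495). The Btbd1 call is marginal: it ended with library totals (-1.33, adjusted p = 0.139), under TMM (-0.33), with no filter (adjusted p = 0.0501) and with 1 CPM in 2 samples (adjusted p = 0.055), and 43.9% of its 31-base words are shared with another gene. Btbd9 had 6 listed transcripts, all lower and 4 of them past the test. Its listed counts summed to 605.4 and 764.8 in WT and to 50.9 and 104 in cKO. Both of its coding forms, of 2007 and 2079 bases, were at 0 in both cKO libraries, from 119.9 and 113.6 and from 105.2 and 154.6 counts, which bounds them at 96.8-fold and 108-fold lower or more (adjusted p = 0.0173 and 0.0183). Of the 31-base words of these 2 forms, 59% and 62.2% also occur in transcripts of another gene of GENCODE vM21, so how their reads were assigned is uncertain. Kctd16, an auxiliary subunit of GABA-B receptors, had 5 listed transcripts, all non-coding and all lower. Of the 3 tested only 1 passed, and the call of this 644-base form ended under TMM scaling (adjusted p = 0.0628). The strongest, of 644 bases, went from 112.5 and 98.4 to 0 and 4 counts (-5.63 ± 0.97, adjusted p = 0.0315), or -4.68 and -9.68 without cKO replicate 1 or 2 (adjusted p = 0.000171 and 5.81e-06).

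The Btbd35f genes, a mouse family of near-identical copies on the X chromosome, were lower in every listed copy. The 10 copies had fitted log2 fold changes from -7.89 to -1.72 with a median of -2.75, and 4 passed the test. Btbd35f3 fell from 66 and 69.1 to 8.08 and 7.2 counts (-3.13 ± 0.49, adjusted p = 0.0263). Of the 9 copies found in GENCODE vM21, 88.7% to 100% of their 31-base words occur in another gene, so the counts of single copies are uncertain and the copies are not independent of each other. They made up most of the X-linked members: all 16 X-linked member transcripts, of 15 genes, had fitted decreases (median -2.58) and 8 fell. The other X-linked members were Cul4b, Asb9, Asb12, Klhl13 and Klhl15. Over all listed X-linked transcripts tested the median was 1.10, with 283 fitted increases and 230 decreases, and it turned to -0.24 with equal Sertoli marker counts, under which the X-linked members were at -3.90.

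Increases among the BTB genes were smaller or from a very low start. Klhl23 (chromosome 2, 69821944 to 69836651) rose from 905.1 and 872.6 to 2353 and 1949 counts (1.27 ± 0.24, adjusted p = 0.037), and its sign turned with equal Sertoli counts, to -0.03. A Klhl26 transcript of 2919 bases was at 0 in both WT libraries and at 25.9 and 36.8 in cKO, at least 17.5-fold higher (adjusted p = 0.0295), and it alone of the 6 that rose also passed under all 3 other scalings. A short Kctd15 transcript went from 0 to 10.5 and 14.4, at least 6.94-fold higher (adjusted p = 0.0448), a call that ended under DESeq2 (adjusted p = 0.18) and with no filter (adjusted p = 0.066). The GABA-B auxiliary subunit Kctd12, at 581 and 578.6 counts in WT and 1274 and 1147 in cKO, missed the threshold (1.06 ± 0.24, adjusted p = 0.0559), and 63.5% of its 31-base words are shared with another gene.

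In the F-box family, several genes fell together with all their listed transcripts. Fbxl13, the mouse counterpart of a human subunit of the nexin-dynein regulatory complex of motile cilia, had 3 listed transcripts that fell. The coding one (ENSMUST00000051358, chromosome 5, 21483847 to 21645634) went from 2408 and 2588 to 290 and 309.6 counts (-3.06 ± 0.24, adjusted p = 0.0154), with libraries of a genotype close to each other. Its 2 retained-intron forms fell by 2.60 and 2.77 on the log2 scale, and the call of the second, with 85.6 and 101.9 counts in WT, ended with library totals (adjusted p = 0.0524). Fbxo39 fell from 1510 and 1839 to 54.1 and 181.6 (-3.83 ± 0.62, adjusted p = 0.0277), or -3.20 and -4.95 without cKO replicate 1 or 2 (adjusted p = 3.03e-05 and 2.78e-07). All 4 Fbxw10 transcripts fell, led by a 3267-base form that went from 3684 and 4959 to 895.2 and 1472 (-1.87 ± 0.34, adjusted p = 0.0351). All 4 calls ended under TMM scaling, where the 3267-base form was at -0.36.

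Fbxo2 and Fbxo44, related receptors that are neighbours on chromosome 4 in opposite orientation with 138 bases between them, both fell. FBXO2 binds glycoproteins through their sugar chains. Its transcript went from 326.6 and 366.6 to 29.1 and 20.8 counts (-3.79 ± 0.38, adjusted p = 0.0156) with both cKO libraries far below WT. Of 4 listed Fbxo44 transcripts 3 fell, the most abundant from 777.9 and 853.8 to 84.8 and 116.8 (-3.02 ± 0.32, adjusted p = 0.0162). Fbxo17, of the same glycoprotein-binding group but on chromosome 7, had 51.4 and 56.2 counts in WT and 137.3 and 181.6 in cKO, short of the threshold (1.57 ± 0.38, adjusted p = 0.0686).

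The most abundant F-box transcripts fell by less. Fbxo30 went from 4289 and 3974 to 1480 and 1621 (-1.41 ± 0.22, adjusted p = 0.027) and Fbxo36 from 1325 and 1943 to 517.1 and 633.5 (-1.51 ± 0.30, adjusted p = 0.0424), and both turned to about 0 under TMM scaling, at 0.10 and 0.02. The 3159-base Fbxo34 transcript was at 80.7 and 210.8 in WT and 0 in both cKO libraries, at least 121-fold lower (adjusted p = 0.0241). Of its 31-base words 40.3% are shared with another gene. The WT libraries differ widely, and the fitted log2 fold change of -10.25 was -10.88 without WT replicate 1 and -9.48 without WT replicate 2 (adjusted p = 0.135 and 0.158), where no member passed. Fbxo47, a factor of meiotic prophase, was listed only with a short retained-intron transcript, at 107.6 and 147.6 against 21 and 34.4 counts, and it did not pass (-2.20 ± 0.47, adjusted p = 0.051).

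Of the F-box genes that rose, Fbxl19 encodes a protein that binds unmethylated CpG islands. Its 3410-base transcript went from 101.5 and 155.8 to 555 and 511.9 counts (2.05 ± 0.35, adjusted p = 0.0301), and its 3449-base transcript did not pass (1.06 ± 0.33, adjusted p = 0.138). Fbxo21 (chromosome 5, 117976730 to 118010201) rose from 686.1 and 634.8 to 1617 and 1893 (1.41 ± 0.24, adjusted p = 0.0309), or 0.10 with equal Sertoli counts. Its 2 other listed transcripts were also higher in both cKO libraries without passing (1.29 and 1.48, adjusted p = 0.0847 and 0.0702). Fbxw11, the receptor also known as beta-TrCP2, did not pass at 196.9 and 346.7 against 765.9 and 521.5 counts (1.24 ± 0.40, adjusted p = 0.147).

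**Figure D3:**
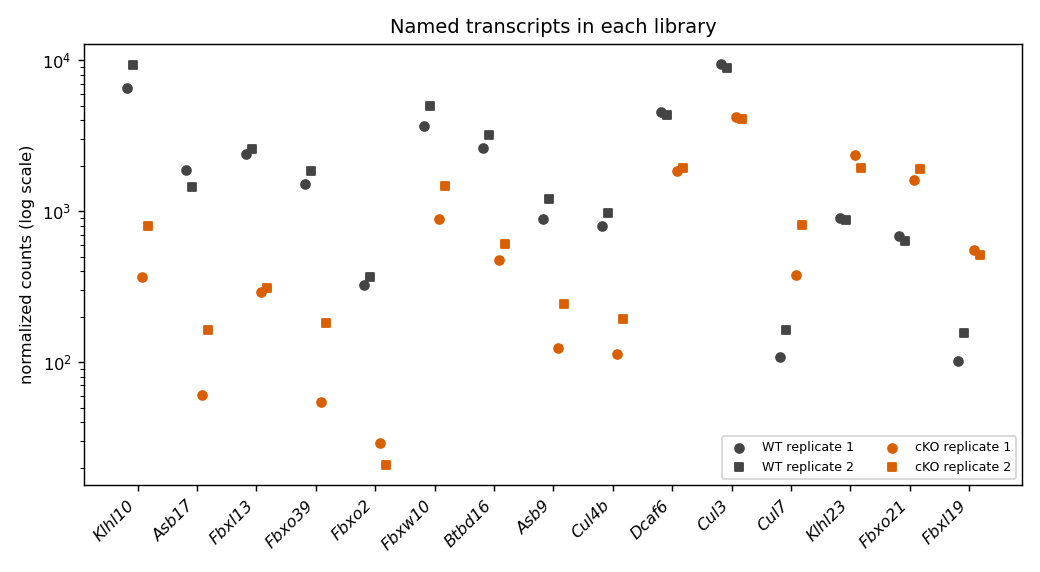
Normalized counts (log scale) of 15 named transcripts in each of the 4 libraries, WT in dark grey and cKO in orange, replicate 1 as circles and replicate 2 as squares. The genotypes separate for each transcript shown, and cKO replicate 2 lies above cKO replicate 1 for all but Fbxo2, Cul3, Klhl23 and Fbxl19.

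Of the DCAF receptors, which join CUL4 through the linker DDB1, Dcaf6 fell from 4519 and 4363 to 1850 and 1929 (-1.23 ± 0.22, adjusted p = 0.0329), turning to 0.29 under TMM scaling. The equally abundant Dcaf1 had 4343 and 6999 counts in WT and 1364 and 2401 in cKO (-1.59 ± 0.39, adjusted p = 0.0723), and Dcaf5 4730 and 5383 against 2031 and 2582 (-1.13 ± 0.25, adjusted p = 0.0521, or 0.38 under TMM scaling). Neither passed by edgeR, and both passed by DESeq2 (adjusted p = 0.00481 and 0.00384). The other transcript that fell by edgeR was a 432-base form of Dcaf15 with 15.9 and 19.9 counts in WT and 0 and 0.8 in cKO (adjusted p = 0.032), and this call ended under DESeq2 (adjusted p = 0.0859). Dcaf4 and Dcaf11 had higher counts in cKO but missed the threshold (1.35 ± 0.34 and 1.10 ± 0.33, adjusted p = 0.0747 and 0.122).

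SOCS box receptors of the Asb group were lower throughout, with 8 of 11 tested Asb transcripts past the test and 0 fitted increases. Asb17 (chromosome 3, 153844209 to 153855082) had 2 listed transcripts, a 1052-base form annotated for nonsense-mediated decay that fell from 1864 and 1448 to 60.6 and 163.2 (-3.89 ± 0.54, adjusted p = 0.0221) and the 2553-base coding form that fell from 746.1 and 853.8 to 67.1 and 88.8 (-3.36 ± 0.32, adjusted p = 0.0154). Without cKO replicate 2 the first was at -4.77 (adjusted p = 4.04e-07). Asb9, an X-linked receptor of creatine kinase, fell from 889.2 and 1199 to 123.6 and 242.4 (-2.51 ± 0.42, adjusted p = 0.0295). A 1162-base Asb8 transcript went from 318 and 237.8 to 0 and 3.2 counts (-7.33 ± 0.86, adjusted p = 0.0183), with the size set by few cKO reads: it was -6.38 and -11.07 without cKO replicate 1 or 2 (adjusted p = 5.5e-06 and 3.64e-07). The more abundant Asb4 and Asb15 transcripts fell as well, by 1.79 and 3.17 on the log2 scale.

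The Spsb receptors, which bind targets through a SPRY domain, followed the same direction. Spsb1 fell from 407.3 and 727.3 to 60.6 and 80.8 (-3.00 ± 0.43, adjusted p = 0.0227) and Spsb2 from 250.7 and 345.5 to 52.5 and 28.8 (-2.87 ± 0.45, adjusted p = 0.0268). The 2 listed Spsb3 transcripts differed in size, one at -2.75 ± 0.37 (adjusted p = 0.0207) and the more abundant at -1.11 ± 0.30 (adjusted p = 0.0904), which turned to 0.40 under TMM scaling. Between 64.9% and 77.3% of their 31-base words are shared with another gene. Among the suppressors of cytokine signalling, Socs1 was at 0 in both WT libraries and at 17.8 and 17.6 in cKO, at least 9.85-fold higher (adjusted p = 0.0341), a call that ended under DESeq2 (adjusted p = 0.0598) and with equal Sertoli counts (adjusted p = 0.0587). Socs6 had 52.6 and 67.9 counts in WT and 168 and 155.2 in cKO, short of the threshold (1.42 ± 0.37, adjusted p = 0.0818).

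Transcripts at 0 in one genotype were mainly at 0 in cKO. Of the 126 members 14 were at 0 in both cKO libraries and 4 in both WT libraries, beside 8.14% and 7.27% of the whole table. The bounds ran from 6.91-fold to 121-fold lower and from 6.94-fold to 19.2-fold higher. An estimated count of 0 for one form can reflect how reads were shared among the forms of a gene. Of the 88 genes, 24 had more than 1 listed transcript, and in 16 of them all were lower and in 7 all were higher by the authors' deposited log2 fold changes.

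Higher and lower members also differed in features that the name rule did not use. By the direction in the authors' deposited table, the 38 higher transcripts had a median length of 3153 bases and the 88 lower ones of 1908, beside 2882 and 1584 in the whole table. Higher members had a median of 1.36 FPKM in WT and 6.08 in cKO, beside 0.85 and 4.22 for all higher transcripts of the table. Lower members had a median of 9.26 FPKM in WT and 1.77 in cKO, beside 11.2 and 2.59. Direction was set by the same libraries, so which genotype had the higher level within each group was fixed in advance. The share annotated as protein coding was 73.7% and 70.9%, beside 73.3% and 68.9%. All listed transcripts thus showed the same order in length, level and coding share. The X-linked share had the opposite order: 0% of higher and 18.2% of lower members, beside 7.71% and 3.21% of the table. Most of the X-linked members were Btbd35f copies. The part of length or level in these directions was not tested.

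The listed partners of these receptors moved in both directions. Of 80 gene names of the pathway outside the name rule, 35 were listed, and of their 55 tested transcripts 22 fell and 5 rose, close to the 41.4% and 10.4% of the whole table. Under TMM scaling the split turned to 9 lower and 11 higher. In NEDD8 conjugation, which activates cullins, 8 of 16 transcripts fell and 2 rose. Dcun1d1, a ligase that attaches NEDD8 to cullins, had 5 of these, among them a coding form that fell from 2745 ± 169 to 208.9 ± 45.1 (-3.72 ± 0.29, adjusted p = 0.0154). A coding Dcun1d4 transcript of 4116 bases went the other way, from 0 to 226.6 ± 18.9 counts (adjusted p = 0.0155). Another coding form, of 4117 bases, fell from 1954 ± 213 to 524.8 ± 82.7 (-1.90 ± 0.26, adjusted p = 0.0217). How reads were shared between these forms of near-equal length is uncertain, so the increase may not be one of the gene. Of 7 tested transcripts of partner E2 enzymes 5 fell and 1 rose, and 3 of those that fell were of Cdc34, the E2 of SCF ligases, led by one that went from 1753 ± 497 to 89.5 ± 39.7 (-4.29 ± 0.45, adjusted p = 0.0162). In the group of RING subunits, adaptors and linkers 1 of 4 fell, a non-coding Elob transcript, and of the COP9 signalosome, which removes NEDD8, 0 of 2 passed, by edgeR or DESeq2, although both had an unadjusted p under 0.05 (Cops5 at -1.49 ± 0.51 and Cops8 at 1.33 ± 0.45). Receptors named otherwise gave 8 of 26 lower and 2 higher, among them the F-box protein Skp2 (a coding form from 2305 ± 26.7 to 201.9 ± 76.5, -3.51 ± 0.36, adjusted p = 0.0156) and the BTB protein Enc1, which rose from 639.8 ± 65.9 to 1590 ± 225 (1.31 ± 0.25, adjusted p = 0.0397).

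**Figure D4:**
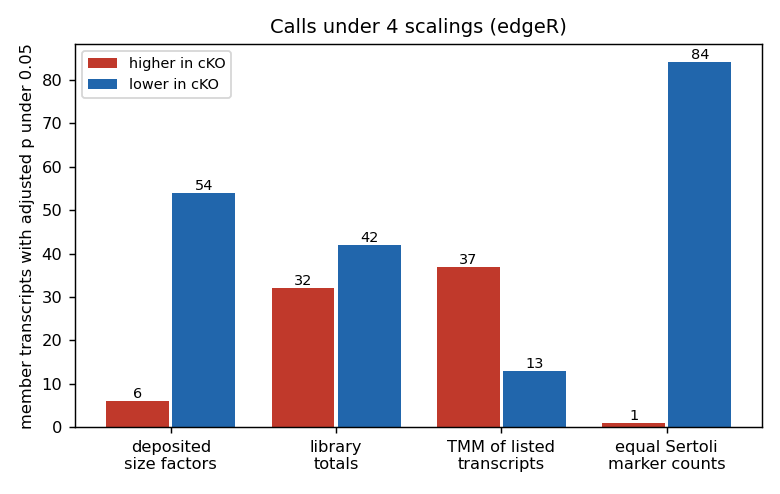
Number of member transcripts with an adjusted p under 0.05 by edgeR (vertical axis) under 4 scalings, higher in red and lower in blue. The split goes from 6 higher and 54 lower with the deposited size factors to 32 and 42 with library totals, 37 and 13 under TMM of the listed transcripts, and 1 and 84 with equal Sertoli marker counts.

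The split of members into higher and lower depended on the scaling. Under TMM 34.5% of the table was higher and 12.3% lower, and with equal Sertoli marker counts 2.91% and 68.8%. Both were set from listed transcripts alone, the Sertoli one from the 12 of 17 markers that were listed. All of these had been called different between the genotypes, so neither scaling rests on unchanged transcripts. Calls kept or ended under them describe dependence on the scaling and do not show which scaling is right. Of the 54 that fell, 13 also passed as lower under library totals, TMM and equal Sertoli counts. These 13 were 2 transcripts each of Btbd9 and Asb17 and 1 each of Klhl10, Klhl15, Fbxl12, Fbxl13, Fbxo2, Fbxo34, Fbxo44, Asb8 and Asb15. Of the 6 that rose, Klhl26 alone did so. With library totals 11 calls of lower ended, those of Cul3, Dcaf6, Fbxo30, Fbxo36, Btbd1, Btbd10, Btbd35f11, Btbd35f24 and 1 transcript each of Btbd16, Fbxl13 and Fbxo34, and Klhl13 was left untested. Of 83 fitted decreases 65 kept their sign in all 4 scalings, and of 37 fitted increases 20 did. Not every one of the rest turned, since some were not fitted under each scaling. TMM fitted 80 of the decreases and turned 15, and equal Sertoli counts fitted 36 of the increases and turned 16. Other genes known for roles in the testis, Btbd18, Kctd19, Dcaf17 and Fbxw7, were not among the listed transcripts and were not analysed here.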

How the data were processed

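The authors' deposited table holds expected counts (estimated reads per Ensembl transcript) and FPKM for each library, with a mean normalized count, which is a signal over the 4 libraries, and log2 fold changes, a score (the statistic) and p-values of their test, per the file headers. Each sample's own deposited file holds the table's FPKM again (45216 of 45216 equal). The submitters' processing notes name the build mm9, but gene coordinates were identical to GENCODE vM21 (GRCm38) for 122 of 126 members and are given as GRCm38. The sources used here name no aligner, counter or strandedness, so overlapping and antisense genes cannot be told apart.

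Members follow the symbol rule, and members, gene lists, scaling and the naming rule were chosen with earlier results of these data known. Named were every cullin, the 3 receptors per family with the highest FPKM, the 3 largest changes per family and direction among calls with at least 50 normalized counts, genes listed in both directions, and 8 genes known from the testis. The other transcripts were picked after their values were seen. Size factors were recovered from the deposited mean normalized counts (largest relative misfit 4.9e-10), library totals from reads, length and FPKM. Expected counts were rounded and tested with edgeR 4.0.16 under R 4.3.3 with genotype as the term and filterByExpr at a minimum count of 10, and the script was checked on simulated data. Benjamini-Hochberg adjustment ran over 64840 transcripts, with unlisted ones as uncalled. The common biological coefficient of variation was 32.5%. A fold against 0 was bounded with 3 counts over the group. Not tested were 6 members under the count filter (2 of Kctd16 and 1 each of Fbxl4, Fbxo24, Fbxo7 and Asb5). The labels do not say that libraries come from separate litters or days, and the spread behind each p-value is that of these 4 libraries, which may be technical. Alternatives were library totals, TMM, equal Sertoli marker counts, no filter, 1 CPM in 2 samples, DESeq2 1.42.0, a replicate block and leaving out each library.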

Additional observations from a re-analysis of the deposited data

How the results depend on the processing

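The median over the tested members was -0.35 under TMM, -1.34 with library totals, -3.17 with equal Sertoli marker counts and -1.56 with 1 lead transcript per gene, and lead transcripts under TMM gave 0.02. TMM, library totals and equal Sertoli counts shift every cKO over WT ratio by 1.52, 0.53 and -1.31 on the log2 scale, by construction. The TMM and Sertoli shifts were set from transcripts picked on this same contrast. The higher and lower counts were 37 and 13 under TMM, 32 and 42 with library totals, and 1 and 84 with equal Sertoli marker counts. DESeq2 gave 18 higher and 68 lower and ended the edgeR calls of Kctd15, Socs1, Dcaf15 and the shorter Asb4 transcript. Leaving out each library in turn gave 0 to 18 higher and 0 to 71 lower, with medians from -2.19 to -1.59. The lone library left in an arm is then assumed to vary like the other genotype. With neither filter did the counts move by over 1.5 times (5 and 50 with none, 4 and 49 with 1 CPM in 2 samples). TMM turned the sign of 15 of 80 fitted decreases and equal Sertoli counts that of 16 of 36 fitted increases. Among the 33 transcripts named by rule, TMM turned Cul3 (0.38), the short Cul5 transcript (0.27), Dcaf5 (0.38), Dcaf6 (0.29), Fbxo30 (0.10), Fbxo36 (0.02) and Spsb3 (0.40), and equal Sertoli counts Klhl23 (-0.03), by the shift itself. The WT and cKO differences between replicates 1 and 2 correlated at 0.18 over 8078 transcripts, and the labels state no pairing. Shares of the whole table were not counted with a replicate block, with either filter or with a library left out. With a replicate block 4 members were higher and 42 lower, with a median of -1.89, and 3 of the 6 and 37 of the 54 calls were kept. Those that ended with the block include Klhl26 (adjusted p = 0.105), Socs1 (0.196), Kctd15 (0.317), the named Kctd16 transcript (0.0575), the 932-base Klhl10 transcript (0.0511), Btbd35f3 (0.052) and the shorter retained-intron Fbxl13 form (0.0606), while Dcaf1 (0.016) and Dcaf5 (0.0253) passed. Of the 33 named transcripts 5 had a higher mean in cKO by FPKM, and 5 by normalized counts.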
